A study of Homo sapiens and Mus musculus with 8 samples.

Results

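The 37 genes of the human mitochondrial genome were followed in 8 RNA sequencing libraries from 2 colorectal cancer cell lines, KM12 and LS174T. Members were all genes whose identifier maps to a symbol that begins with MT-, which gave 13 mRNA genes, 2 rRNA genes and 22 tRNA genes among the 60483 genes counted. Each line was sampled as a cell line-derived xenograft (CDX), a tumor grown in a mouse from human cells, and as cells in culture in RPMI-1640. KM12 was either GNAS knockout or parental with the genotype GNAS R201H. LS174T carried the label GNAS R201H and was either Dox (+) or Dox (-). GNAS makes the stimulatory G-protein alpha subunit, which switches on adenylyl cyclase, and the series title asks about dependence of tumors on its mutant form. The labels do not say what Dox induces, whether the knockout is 1 clone, or how many animals gave a tumor. An effect of doxycycline itself cannot be told apart from one of GNAS. Wherever KM12 parental is matched with LS174T Dox (+), and KM12 knockout with Dox (-), the match rests on the assumption that Dox (+) is the state with active mutant GNAS, which the labels do not state.

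Every group held 1 library, so errors below come from disagreement between matched pairs and not from replicates. Total counts ran from 15924846 to 23124811 in the xenografts and from 31868711 to 37735085 in the cultures. One library protocol is given for all samples, while the read length and sequencing run of each library are not given in the sources used here. A difference in these between the xenograft and the culture libraries cannot be told apart from the environment in any xenograft-over-culture value. Levels are in CPM, counts scaled to a common library size, with TMM factors. For the 4 xenograft libraries the labelled organism is mouse, while the table holds 0 mouse gene identifiers and how mouse reads were treated is not given in the sources used here. The 9 epithelial markers, keratins and cadherins among them, summed to 5214 to 8902 CPM in xenografts and 8733 to 25414 CPM in cultures. GNAS itself had 901 CPM in the KM12 knockout xenograft, against 1385 CPM in the KM12 parental xenograft, and 298 CPM in the KM12 knockout culture, against 1118 CPM in the KM12 parental culture. The LS174T levels were 689.7 CPM in the Dox (+) xenograft, against 584 CPM in the Dox (-) xenograft, and 1743 CPM in the Dox (+) culture, against 690.4 CPM in the Dox (-) culture. Neither GNAS difference passed over the 2 pairs of a line (edgeR, adjusted p = 0.86 for knockout over parental and 0.936 for Dox (+) over Dox (-)).

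Human mitochondrial DNA is a small circle that is read from both strands into long precursor RNAs. POLRMT is its RNA polymerase and TFAM and TFB2M its transcription factors. The tRNAs punctuate these precursors, and their excision by RNase P and ELAC2 frees the mRNAs and rRNAs between them. MTPAP then adds a poly(A) tail to most of the mRNAs, and LRPPRC with SLIRP keeps most of the mRNAs stable. The mRNAs encode core subunits of respiratory complexes I, III and IV and of the ATP synthase, complex V, while the rRNAs build the mitochondrial ribosome. Several open reading frames end in an incomplete stop codon that only the tail completes.

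The sequences that the results turn on are shown first, 5′ to 3′ on the transcript strand, from GENCODE 29 transcripts on GRCh38. MT-ATP8 (chrM:8366-8572, plus strand) is shown whole because it differed most of the mRNAs between xenograft and culture and shares its last 46 bases, in capitals, with MT-ATP6 (chrM:8527-9207, plus strand). MT-TP (chrM:15956-16023, minus strand) and MT-TC (chrM:5761-5826, minus strand) are the tRNA genes for proline and cysteine and the only tRNA genes with enough counts to test. The last 30 bases of MT-ND2 (chrM:5482-5511, plus strand), MT-CO1 (chrM:7416-7445, plus strand) and MT-ND6 (chrM:14149-14178, minus strand) show in capitals an incomplete stop codon and 2 complete ones, AGA and AGG, which the nuclear code reads as arginine.
MT-ATP8: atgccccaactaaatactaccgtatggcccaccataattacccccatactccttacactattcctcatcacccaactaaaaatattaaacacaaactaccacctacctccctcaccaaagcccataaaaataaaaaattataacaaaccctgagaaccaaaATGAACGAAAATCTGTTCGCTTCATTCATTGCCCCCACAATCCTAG
MT-TP: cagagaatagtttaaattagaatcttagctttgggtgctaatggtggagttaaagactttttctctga
MT-TC: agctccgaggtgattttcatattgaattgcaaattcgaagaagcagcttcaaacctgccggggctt
MT-ND2 3' end: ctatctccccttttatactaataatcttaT
MT-CO1 3' end: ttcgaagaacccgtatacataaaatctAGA
MT-ND6 3' end: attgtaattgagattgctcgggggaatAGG

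The first question was how much of each library the 3 classes take. The 13 mRNAs took a smaller share of all counts in the xenograft than in the culture of the same line and state, in 4 of 4 pairs. In KM12 the share was 7.54% in the knockout xenograft and 8.07% in the parental xenograft, against 11.4% in the knockout culture and 10.8% in the parental culture. In LS174T it was 5.08% in the Dox (+) xenograft and 4.84% in the Dox (-) xenograft, against 6.63% in the Dox (+) culture and 7.63% in the Dox (-) culture. The ratio of shares, xenograft over culture, was therefore 0.635 to 0.766, with a mean log2 ratio of -0.51 ± 0.13 (SD, 4 pairs). In bulk RNA, fewer cells that carry a transcript and less of it per cell cannot be told apart. No test was made on these sums, and exact 95% binomial intervals on each share were at most ± 0.0134 percentage points, which cover counting error only.

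The other classes are given apart from the mRNAs. The 2 rRNAs took 0.383% to 0.584% of counts in xenografts and 0.350% to 0.799% in cultures, and these ranges overlap. Their log2 ratio averaged -0.18 ± 0.77 (SD, 4 pairs), above 0 in both KM12 pairs and below 0 in both LS174T pairs. With TMM library sizes as the denominator, the scaling used for the levels below, the KM12 knockout pair turned, at a ratio of 0.856, beside 1.39 in KM12 parental, 0.609 in LS174T Dox (+) and 0.406 in LS174T Dox (-), and the mean log2 ratio was -0.44. The 22 tRNA genes took 0.00390% to 0.00616% of counts in xenografts, against 0.00819% to 0.0147% in cultures, with a mean log2 ratio of -1.25 ± 0.24 (SD, 4 pairs). Nearly all of these tRNA counts, 19491 over the 8 libraries, came from MT-TP, so this sum is close to that of 1 gene. Capture was by oligo(dT), so neither rRNA nor tRNA counts measure the whole pool of those molecules.

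**Figure D1:**
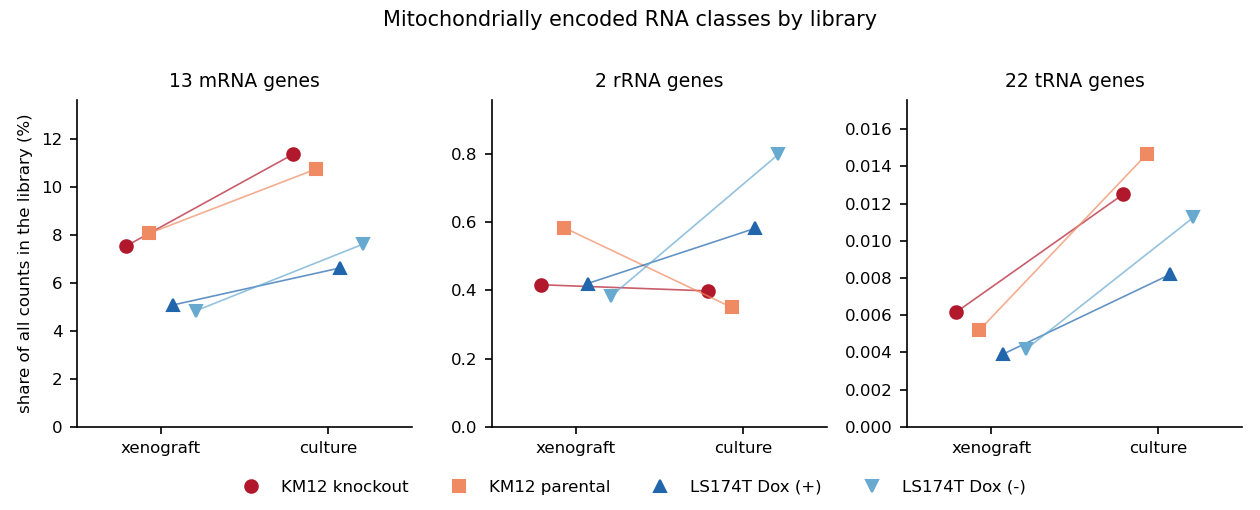
Share of all counts (%, linear axes from 0) taken by the mRNA, rRNA and tRNA genes of mitochondrial DNA, 1 point per library, with lines joining the xenograft and the culture of the same line and GNAS state. Nearly all tRNA counts came from MT-TP. The mRNA lines all slope the same way, with xenografts between 4.84% and 8.07% and cultures between 6.63% and 11.4%, while the rRNA lines slope opposite ways in KM12 and LS174T, which for KM12 knockout turns under TMM scaling.

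Gene by gene, xenografts were compared with cultures across the 4 matched pairs with edgeR's quasi-likelihood test, with p-values adjusted over all 16070 genes tested. Of the 13 mRNAs, 8 fell in xenografts (adjusted p under 0.05), where 13.5% of all genes tested fell. None of the 13 rose in this test, where 12.6% of all genes rose, and MT-CO1 alone had an estimate above 0. Neither rRNA passed. The median log2 difference was -0.84 over the 13 mRNAs and 0.02 over all genes tested. Nuclear genes differed by transcript length, with a median of 1.76 up to 300 bases and 0.95 from 300 to 600. Their median was 0.41 from 600 to 1000 bases, 0.08 from 1000 to 2000 and -0.04 for the 11961 genes above 2000. The 13 mRNAs are 207 to 1812 bases long, so all genes are not a background of like length. The part of length in the results was not tested. DESeq2 and limma-voom each called 11 of the 13 lower. The count of 8 rested on all 4 pairs: it was 5 without KM12 knockout, 4 without KM12 parental, 1 without LS174T Dox (+) and 3 without LS174T Dox (-). Scaling by total counts alone, which moved the median of all genes to 0.28, called 5.

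**Figure D2:**
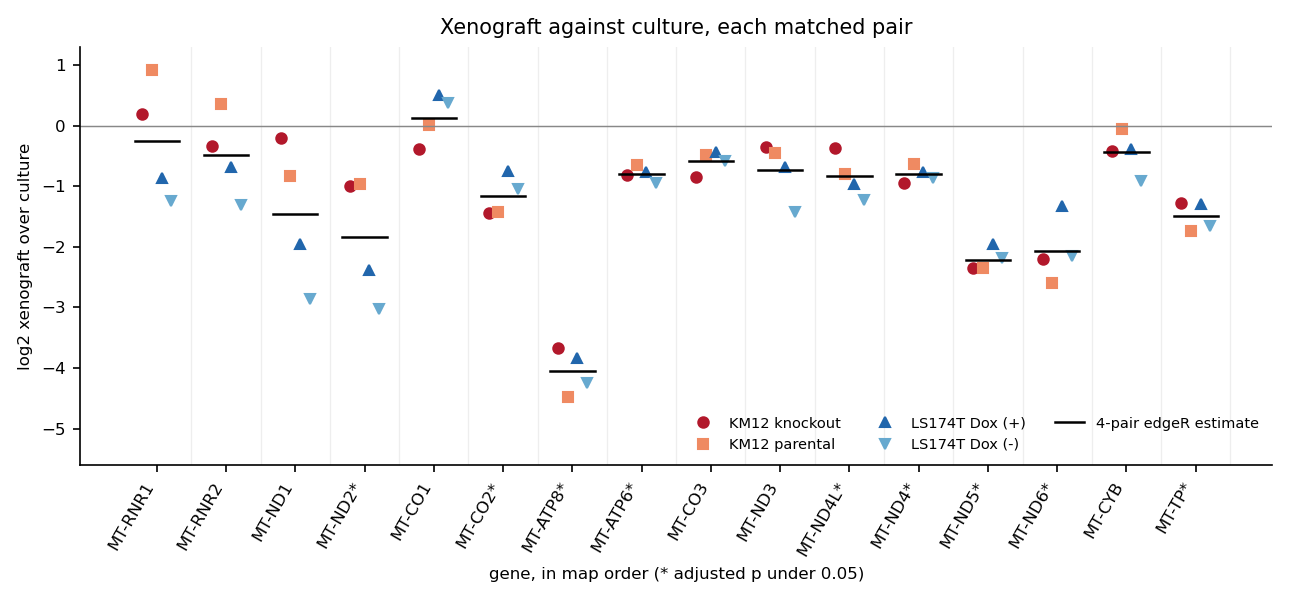
Log2 xenograft over culture for the 13 mRNAs, both rRNAs and MT-TP in map order, with 1 point per matched pair, a black line for the 4-pair edgeR estimate and an asterisk where the adjusted p was under 0.05. MT-ATP8 lies between -4.47 and -3.66, and MT-ND5, MT-ND6 and MT-TP lie below -1 in every pair. The KM12 points lie above the LS174T points for MT-RNR1, MT-RNR2, MT-ND1, MT-ND2, MT-ND3 and MT-ND4L. They lie below them for MT-CO1, MT-CO2, MT-ND5 and MT-ND6.

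MT-ATP8, a small subunit of the ATP synthase, had the largest fall in counts among the mRNAs. It had 198 and 114 CPM in the KM12 knockout and parental xenografts, against 2516 and 2531 CPM in the KM12 knockout and parental cultures. LS174T gave 179 and 132 CPM in the Dox (+) and Dox (-) xenografts, against 2568 and 2514 CPM in the Dox (+) and Dox (-) cultures. The 4 cultures lay within a narrow band of one another, and every xenograft was far below it, by 12.7-fold to 22.2-fold within pairs. The log2 difference was -4.05 ± 0.22 (SE, edgeR, adjusted p = 0.00301), and it passed under all 11 alternatives run, at -4.18 to -3.80.

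MT-ATP6, the ATP synthase subunit read from the same transcript, fell much less. It had 4919 and 5457 CPM in the KM12 knockout and parental xenografts, against 8653 and 8594 CPM in the KM12 knockout and parental cultures. For LS174T the values were 4121 and 3848.5 CPM in the Dox (+) and Dox (-) xenografts, against 6969 and 7417 CPM in the Dox (+) and Dox (-) cultures. All xenografts lay below all cultures, and the log2 difference was -0.79 ± 0.18 (SE, edgeR, adjusted p = 0.0277), a call lost when any pair was left out. The 2 reading frames lie on 1 mature mRNA, so their counts were also set against each other within each library. MT-ATP8 reached 2.09% to 4.35% of the MT-ATP6 count in xenografts, against 29.1% to 36.9% in cultures. Frames on 1 mRNA share its level, so the 2 count differences cannot both measure a change of that mRNA. Each whole count was also divided by the bases its gene does not share with a neighbour, which does not take out reads over the overlap. By this measure the MT-ATP8 density was 0.0823 to 0.171 of the MT-ATP6 density in xenografts and 1.15 to 1.45 of it in cultures.

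The other pair of overlapping frames did not show this. MT-ND4L and MT-ND4, both complex I subunits, also share a transcript and overlap by 7 bases. MT-ND4L reached 6.82% to 11.6% of the MT-ND4 count in xenografts and 7.63% to 11.1% in cultures, and these ranges overlap. How the counting program assigned a read that covers 2 genes is not given in the sources used here, and the part of the overlap in the MT-ATP8 result was not tested.

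**Figure D3:**
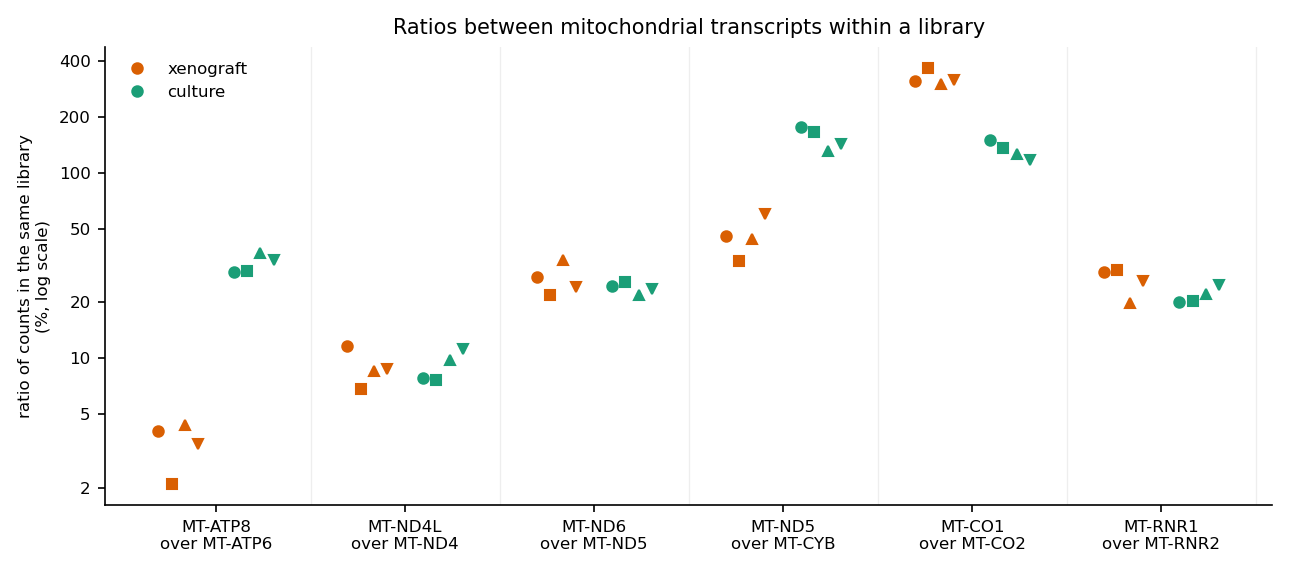
Ratio of the counts of 2 mitochondrial transcripts in the same library (%, log axis), with xenografts left of cultures and circles for KM12 knockout, squares for KM12 parental, upward triangles for LS174T Dox (+) and downward triangles for LS174T Dox (-). The groups lie apart for MT-ATP8 over MT-ATP6, MT-ND5 over MT-CYB and MT-CO1 over MT-CO2, and overlap for MT-ND4L over MT-ND4, MT-ND6 over MT-ND5 and MT-RNR1 over MT-RNR2.

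Complex I takes 7 of the 13 mRNAs, and 5 of them fell: MT-ND2, MT-ND4L, MT-ND4, MT-ND5 and MT-ND6. MT-ND5, a proton-pumping subunit, had 2251 and 2046 CPM in the KM12 knockout and parental xenografts, against 11517 and 10472.5 CPM in the KM12 knockout and parental cultures. In LS174T it had 1399 and 1576 CPM in the Dox (+) and Dox (-) xenografts, against 5423 and 7122 CPM in the Dox (+) and Dox (-) cultures. It was 3.88-fold to 5.12-fold lower in each xenograft than in its culture, and the log2 difference was -2.21 ± 0.19 (SE, edgeR, adjusted p = 0.00887).

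MT-ND6 is the 1 mRNA read from the other strand, opposite the long stretch that holds the remaining mRNAs and both rRNAs. It had 616 and 447 CPM in the KM12 knockout and parental xenografts, against 2820 and 2691 CPM in the KM12 knockout and parental cultures. The LS174T levels were 474 and 382 CPM in the Dox (+) and Dox (-) xenografts, against 1192 and 1686 CPM in the Dox (+) and Dox (-) cultures. The groups did not overlap, and the log2 difference was -2.07 ± 0.25 (SE, edgeR, adjusted p = 0.0098). The calls of MT-ND5 and MT-ND6 were lost without the LS174T Dox (+) pair, at log2 differences of -2.29 and -2.30. MT-ND6 stood at 21.8% to 33.9% of the MT-ND5 count in xenografts and 21.98% to 25.7% in cultures, so the 2 neighbours on opposite strands kept to overlapping ranges. The library protocol does not mark strand, and reads from a gene and from its antisense RNA cannot be told apart. Capture was by oligo(dT) and tails were not measured, so the MT-ND6 counts need not cover its whole pool.

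By counts, only 3 mRNAs, MT-ATP8, MT-ND5 and MT-ND6, were at least 2-fold lower in all 4 xenografts than in their cultures, as were 1.43% of all genes tested. For 6 of the 13 mRNAs all 4 xenografts lay below all 4 cultures, a pattern that 13.9% of all genes showed. Those 6 were MT-ND2, MT-CO2, MT-ATP8, MT-ATP6, MT-ND5 and MT-ND6.

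MT-ND2 and MT-ND1, the first 2 protein genes downstream of the rRNAs, depended on the line. MT-ND2 had 3962 and 3939 CPM in the KM12 knockout and parental xenografts, against 7886 and 7657 CPM in the KM12 knockout and parental cultures. LS174T gave 1300.2 and 1024 CPM in the Dox (+) and Dox (-) xenografts, against 6773 and 8317 CPM in the Dox (+) and Dox (-) cultures. It was thus 1.94-fold to 1.99-fold lower in KM12 xenografts and 5.21-fold to 8.12-fold lower in LS174T xenografts. Its 4-pair log2 difference was -1.83 ± 0.43 (SE, edgeR, adjusted p = 0.031), a call lost when either LS174T pair was left out. The MT-ND2 count was 6.24% to 20.99% of the MT-CO1 count in xenografts, against 31.8% to 66.0% in cultures, and these ranges were apart.

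MT-ND1 had 4574 and 2732 CPM in the KM12 knockout and parental xenografts, against 5235 and 4873 CPM in the KM12 knockout and parental cultures. For LS174T the values were 931 and 667 CPM in the Dox (+) and Dox (-) xenografts, against 3600.2 and 4866 CPM in the Dox (+) and Dox (-) cultures. The KM12 knockout xenograft stood close to the cultures and above the KM12 parental one. With the pairs this far apart, the 4-pair log2 difference of -1.45 ± 0.48 (SE) did not pass (edgeR, adjusted p = 0.0703).

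The dependence on line was tested directly as the difference of the environment effect, KM12 minus LS174T. That difference passed upward for 2 of the 13 mRNAs, where 5.94% of all genes passed, and for 1 of the 2 rRNAs. It passed downward for none of the 13, where 7.74% of all genes passed, with 1 called lower by limma-voom and 0 by DESeq2. In either direction 5 of the mRNAs had an unadjusted p under 0.05 with edgeR. The calls were MT-ND2 at 1.73 ± 0.24 (SE, edgeR, adjusted p = 0.00458), MT-ND1 at 1.89 ± 0.37 (adjusted p = 0.0252) and the 12S rRNA, MT-RNR1, at 1.62 ± 0.28 (adjusted p = 0.0111). These genes lie together at the promoter end of the heavy-strand transcript, and the 16S rRNA between them, MT-RNR2, stood at 1.01 ± 0.31 (adjusted p = 0.0714). None of these 3 passed when either LS174T pair was left out. With DESeq2 MT-ND1 did not pass and MT-RNR2 did.

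Other measures differed between the lines in the same test, and their part in these results was not tested. Of the 17 tested nuclear copies of mitochondrial genes 1 passed, MTND2P28, the copy of MT-ND2, at 1.62 ± 0.27 (SE, edgeR, adjusted p = 0.00838). Of the RNAs without a poly(A) tail RN7SL2, a signal recognition particle RNA, passed at 3.60 ± 0.41 (adjusted p = 0.00379), 1 of 6 tested. Of the epithelial markers 3 of 9 passed upward, with KRT8, a keratin, at 2.34 ± 0.21 (adjusted p = 0.000954), and 1 downward, CDX2, at -1.23 ± 0.25 (adjusted p = 0.0173). Among markers of other cells, the collagen gene COL1A2 passed at 5.24 ± 0.70 (edgeR, adjusted p = 0.00363, 1 of 4 fibroblast genes tested). COL1A2 had only 0.145 to 3.71 CPM across the libraries, and 1 of the 4 fibroblast genes had a difference below 0. The lipid-droplet gene PLIN1 passed at 3.32 ± 0.65 (adjusted p = 0.0151, the 1 adipocyte gene tested). The myosin gene MYH4 passed at -3.10 ± 0.37 (adjusted p = 0.00236, 1 of 2 muscle genes tested).

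Of the rRNAs, MT-RNR1 showed the line dependence as opposite signs and MT-RNR2 did not. MT-RNR1 had 851 and 1222 CPM in the KM12 knockout and parental xenografts, against 740 and 645 CPM in the KM12 knockout and parental cultures. In LS174T it had 628 and 742 CPM in the Dox (+) and Dox (-) xenografts, against 1137 and 1764 CPM in the Dox (+) and Dox (-) cultures. Both KM12 xenografts lay above the KM12 cultures, and both LS174T xenografts lay below the LS174T cultures. MT-RNR2 had 2913 and 4089 CPM in the KM12 knockout and parental xenografts, against 3658 and 3188 CPM in the KM12 knockout and parental cultures. The LS174T levels were 3173 and 2850.3 CPM in the Dox (+) and Dox (-) xenografts, against 5101 and 7079 CPM in the Dox (+) and Dox (-) cultures. Of the xenografts only the KM12 parental one lay above its culture. Over the 4 pairs neither passed, with log2 differences of -0.25 ± 0.39 for MT-RNR1 and -0.49 ± 0.30 for MT-RNR2 (SE, edgeR, adjusted p = 0.654 and 0.258), and 0 of the 2 had an unadjusted p under 0.05 or a call by DESeq2 or limma-voom. The MT-RNR1 direction turned to 0.01 under scaling by total counts and to 0.11 without the LS174T Dox (-) pair.

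The 3 catalytic-core subunits of complex IV did not move together. MT-CO2 had 6051 and 6109.6 CPM in the KM12 knockout and parental xenografts, against 16438 and 16475 CPM in the KM12 knockout and parental cultures. LS174T gave 5419.6 and 5199.5 CPM in the Dox (+) and Dox (-) xenografts, against 9086 and 10747 CPM in the Dox (+) and Dox (-) cultures. It was 1.68-fold to 2.72-fold lower in xenografts, at a log2 difference of -1.16 ± 0.22 (SE, edgeR, adjusted p = 0.0188), and every omission of a pair lost the call.

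MT-CO1, the subunit that holds the oxygen-binding site, had the highest counts of all members in every library but the LS174T Dox (-) culture, where MT-ND4 led. It had 18872 and 22518 CPM in the KM12 knockout and parental xenografts, against 24763.5 and 22397 CPM in the KM12 knockout and parental cultures. For LS174T the values were 16313 and 16411 CPM in the Dox (+) and Dox (-) xenografts, against 11421.5 and 12594.5 CPM in the Dox (+) and Dox (-) cultures. The xenografts were above the cultures in LS174T and close to or below them in KM12, and the log2 difference of 0.13 ± 0.24 did not pass (SE, edgeR, adjusted p = 0.703). Its count was 301% to 369% of the MT-CO2 count in xenografts, against 117% to 151% in cultures. MT-CO3 had 4535 to 8944 CPM in xenografts and 6343 to 14330.1 CPM in cultures, at -0.58 ± 0.19 (adjusted p = 0.0653).

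The remaining mRNAs differed by smaller amounts. MT-ND4 had 6677 to 13037 CPM in xenografts and 11301 to 21684.5 CPM in cultures, and fell by 0.80 ± 0.19 on the log2 scale (SE, edgeR, adjusted p = 0.0326). MT-ND4L had 570.4 to 1306 CPM in xenografts and 1109.5 to 1690 CPM in cultures, and fell by 0.84 ± 0.19 (adjusted p = 0.0294). Each was lower in 4 of 4 pairs, though their overall ranges overlap because the lines differ. Leaving out pairs ended the MT-ND4 call in every case and the MT-ND4L call in every case but KM12 knockout. MT-ND3, another complex I subunit, stood at -0.72 ± 0.22 (adjusted p = 0.0606). MT-CYB, the 1 complex III subunit in the set, stood at -0.44 ± 0.21 (adjusted p = 0.164), with 2627 to 6103 CPM in xenografts and 4147 to 6536 CPM in cultures.

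The makeup of the mRNA pool needs no scaling between libraries and is given without a test. MT-CO1 made up 32.5% ± 4.0 of the 13 mRNAs' counts in xenografts and 17.4% ± 2.3 in cultures (SD over 4 libraries that differ in line and GNAS state), and these ranges were apart. MT-ND5 made up 3.15% ± 0.30 in xenografts and 8.53% ± 0.67 in cultures. MT-CYB made up 7.05% ± 1.04 in xenografts and 5.57% ± 0.34 in cultures, with overlapping ranges, and the MT-ND5 count was 33.5% to 60.01% of the MT-CYB count in xenografts, against 131% to 176% in cultures. MT-ND4, at 16.5% ± 1.4 in xenografts and 16.8% ± 0.6 in cultures, and MT-ATP6, at 8.02% ± 0.83 in xenografts and 8.196% ± 1.35 in cultures, held nearly equal mean shares.

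By complex, the 3 complex IV mRNAs made up 53.6% ± 4.6 of the pool in xenografts and 40.3% ± 4.2 in cultures. The 7 complex I mRNAs made up 31.0% ± 4.9 in xenografts and 43.2% ± 2.4 in cultures. For both complexes the xenograft and culture ranges were apart. The 2 complex V mRNAs made up 8.30% ± 0.91 in xenografts and 10.9% ± 2.1 in cultures, with overlapping ranges. These are shares of counts, so a long mRNA weighs more than a short one.

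**Figure D4:**
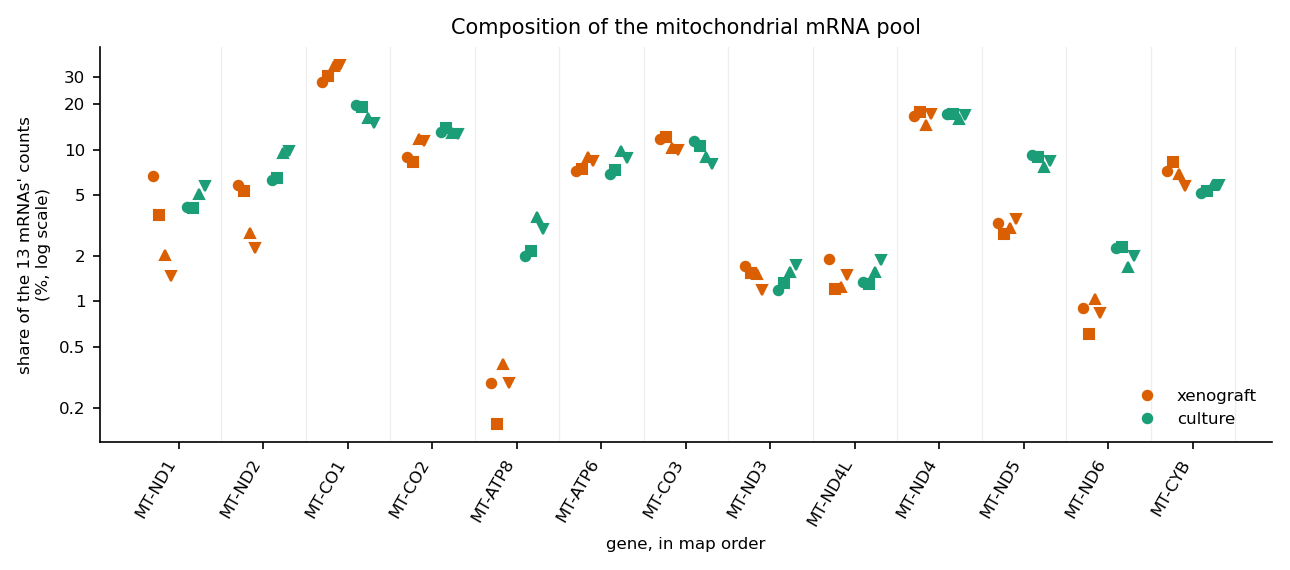
Share of the 13 mitochondrial mRNAs' counts taken by each gene (%, log axis) in map order, with xenografts left of cultures and circles for KM12 knockout, squares for KM12 parental, upward triangles for LS174T Dox (+) and downward triangles for LS174T Dox (-). MT-CO1 ranges from 27.7% to 36.1% in xenografts and from 14.9% to 19.7% in cultures, while MT-ATP8 ranges from 0.155% to 0.390% in xenografts and from 2.00% to 3.61% in cultures.

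Levels per kilobase allow genes to be ordered. In xenografts the order began with MT-CO1 at a mean of 12016 CPM per kilobase, followed by MT-CO3 at 8344, MT-CO2 at 8326, MT-ND4 at 7043 and MT-ATP6 at 6735, and ended with MT-RNR1 at 902 and MT-ATP8 at 754. In cultures it began with MT-CO2 at 19279 CPM per kilobase, followed by MT-CO3 at 12755, MT-ND4 at 12244, MT-ATP8 at 12233, MT-ATP6 at 11612 and MT-CO1 at 11540, and ended with MT-RNR2 at 3051 and MT-RNR1 at 1123. Most neighbours in each order overlapped between libraries. In xenografts only MT-ATP6 with MT-CYB, and MT-RNR2 with MT-ND5, had ranges that were apart, and in cultures only MT-ND2 with MT-ND4L, and MT-RNR2 with MT-RNR1. MT-ATP8 thus stood beside MT-ATP6 in cultures and far below it in xenografts. The end of the xenograft order, among mRNAs and rRNAs, differed between libraries of the same line. MT-ATP8 was last in the KM12 parental xenograft at 551 and in the LS174T Dox (-) xenograft at 638. MT-RNR1 was last in the KM12 knockout xenograft at 892, below MT-ATP8 at 958. It was also last in the LS174T Dox (+) xenograft, at 658. In the LS174T Dox (+) xenograft MT-ATP8, at 866, also lay above MT-ND5 at 772.

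Of the 22 tRNA genes, 14 had no counts in any library and 4 had a single count in all 8. A count of 0 allows up to 3 counts, which is 0.0878 to 0.171 CPM with TMM factors, depending on the library. The genes are 59 to 75 bases long, and 12 of the 14 without counts lie within 10 bases of the next gene on both sides. MT-TP alone held 19491 of the 19782 tRNA counts (98.5%). MT-TP and MT-TF, the tRNA for phenylalanine with 48 counts in all, border the noncoding control region.

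MT-TP fell in xenografts. It lies on the minus strand, and its reads cannot be told apart from those of RNA from the opposite strand. It had 55.5 and 47.2 CPM in the KM12 knockout and parental xenografts, against 135 and 158 CPM in the KM12 knockout and parental cultures. In LS174T it had 35.0 and 39.1 CPM in the Dox (+) and Dox (-) xenografts, against 86.0 and 123 CPM in the Dox (+) and Dox (-) cultures. The groups did not overlap, each xenograft was 2.43-fold to 3.34-fold below its culture, and the log2 difference was -1.49 ± 0.14 (SE, edgeR, adjusted p = 0.00921), a call lost without the LS174T Dox (+) pair at -1.55.

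MT-TC had 0 counts in all 4 xenografts, against 56 and 40 in the KM12 knockout and parental cultures and 23 and 20 in the LS174T Dox (+) and Dox (-) cultures. With the floor of 3 counts in each xenograft library, it was at least 11.3-fold, 8.01-fold, 5.24-fold and 5.04-fold lower in the KM12 knockout, KM12 parental, LS174T Dox (+) and LS174T Dox (-) xenografts. It entered the test only through the KM12 cultures, so its call adds no support. Its neighbour MT-TY, the tRNA for tyrosine on the same strand, had 3 counts over the xenografts and 97 over the cultures and was too low to test.

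Encoded stop codons were read from the sequences. MT-ND1 ends in TA and MT-ND2, MT-CO3, MT-ND3, MT-ND4 and MT-CYB end in a lone T, so these 6 need the tail to complete the codon. The other 7 carry a full one within the gene as annotated. The last base of the MT-ATP6 codon, TAA, is the 1 base that it shares with MT-CO3. Which of these 2 mRNAs keeps that base was not examined, and MT-ATP6 is counted among the 7. The median log2 difference, xenograft over culture, was -0.76 for the 6 incomplete ones and -1.16 for the 7 complete ones, with ranges of -1.83 to -0.44 and -4.05 to 0.13 that overlap. Across the 13 mRNAs the log2 difference had a Pearson correlation of 0.54 with GC content and of 0.29 with length, given as a description of genes that share libraries and a precursor.

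Copies of mitochondrial DNA in the nuclear genome can take or lose reads of a member, so windows of each gene were looked for in the other GENCODE 29 transcripts. Of all 50-base windows, 49.5% of those in MT-CO1, 46.7% in MT-ATP6, 43.6% in MT-ND2, 30.6% in MT-CO3, 28.98% in MT-CO2 and 22.1% in MT-ND1 were found exactly in such a copy, against 8.23% in MT-ATP8, 4.76% in MT-ND5 and 0% in MT-ND3, MT-ND4L and MT-RNR1. At 100 bases the shares were 27.9% for MT-CO1, 26.1% for MT-ND2, 11.9% for MT-ATP6, 10.97% for MT-ND1, 4.38% for MT-CO3, 2.39% for MT-CO2 and 0% for MT-ATP8, MT-ND5 and MT-ND6. Read length is not given in the sources used here.

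The copies themselves differed between the environments. Summed over the list of 403, they had 483 to 685 CPM in xenografts and 1830 to 2157 CPM in cultures. MTATP6P1, the copy of MT-ATP6, had 255 to 362 CPM in xenografts and 1570 to 1849 CPM in cultures and fell by 2.49 ± 0.18 on the log2 scale (SE, edgeR, adjusted p = 0.00781). MTND2P28 fell by 4.92 ± 0.43 (adjusted p = 0.00887), while MTCO1P12 rose by 2.87 ± 0.16 (adjusted p = 0.00326). In all, 8 of the 17 tested copies rose and 2 fell. The levels of MT-ND1, MT-ND2, MT-CO1, MT-CO2, MT-ATP6 and MT-CO3 are uncertain to this extent. For short reads this also holds for MT-ND6 and MT-RNR2. The part of the copies in the results was not tested.

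Other measures moved with the environment too, and their part in the results was not tested. RN7SL2 rose by 5.75 ± 0.92 on the log2 scale (SE, edgeR, adjusted p = 0.015), with 107 to 277 CPM in xenografts and 0.927 to 9.53 CPM in cultures. The 15 RNAs without a tail that the table holds summed to 124 to 293 CPM in xenografts and 8.41 to 43.6 CPM in cultures, and 1 of the 6 tested rose. In xenografts most of that sum was RN7SL2, and in cultures it was a smaller part. The other 14 summed to 15.7 and 47.02 CPM in the KM12 knockout and parental xenografts, against 11.2 and 7.49 CPM in the KM12 knockout and parental cultures, and to 16.9 and 24.1 CPM in the LS174T Dox (+) and Dox (-) xenografts, against 34.1 CPM in both LS174T cultures, so they were higher in KM12 xenografts and lower in LS174T xenografts. MALAT1 and NEAT1, RNAs kept in the nucleus, rose by 1.42 ± 0.16 and 1.99 ± 0.24 (adjusted p = 0.0098 for each). They summed to 330 to 3209 CPM in xenografts and 118 to 884 CPM in cultures.

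Markers of other cells, counted as human genes, were low in most libraries. The table holds human gene identifiers only, so these sums do not measure mouse cells in the xenografts. The 10 fibroblast genes summed to 3.63 to 263 CPM in xenografts and 7.14 to 10.4 CPM in cultures. The highest value was in the KM12 parental xenograft, where COL3A1, a collagen, had 219 CPM, against at most 1.12 CPM in any other library. The 7 endothelial genes summed to 0.933 to 1.83 CPM in xenografts and 0.322 to 0.695 CPM in cultures. The 8 leukocyte genes summed to 1.74 to 767 CPM in xenografts and 37.0 to 314 CPM in cultures. In KM12 nearly all of this was LYZ, with 764 CPM in the KM12 knockout xenograft, while TYROBP had 0 CPM everywhere. None of the 4 tested fibroblast genes and none of the 3 tested leukocyte genes passed between xenograft and culture (edgeR). Of the 2 tested muscle genes MYH4 fell, at -2.98 ± 0.73 (log2, SE, edgeR, adjusted p = 0.0349), and the 7 muscle genes summed to 1.71 to 17.7 CPM in xenografts and 12.0 to 35.7 CPM in cultures. The 5 adipocyte genes summed to 0.677 to 1.94 CPM in xenografts and 0.859 to 5.16 CPM in cultures, and the 4 red cell genes to 0.0968 to 1.49 CPM in xenografts and 0.215 to 1.11 CPM in cultures. None of the 9 epithelial markers passed. Without the KM12 parental pair, the 1 with the high COL3A1 value, the log2 difference of MT-ATP8 was -3.91. Leaving out this pair does not test the part of other cells in the remaining xenografts.

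Nuclear genes for the same machinery were taken from lists of pathway genes. Counts in these lists are to be read against the 13.5% of all genes that fell and the 12.6% that rose. Of the genes for complex I, 6 of 37 fell (16.2%) and 3 rose (8.1%), which is near those shares, with NDUFA3 at -1.35 ± 0.16 and NDUFA1 at -1.26 ± 0.23 (log2, SE, edgeR, adjusted p = 0.0098 and 0.0186). In complex II, 2 of 4 fell, SDHB and SDHA, and in complex III, 4 of 9 fell (44.4%), with UQCR10 at -1.73 ± 0.19 (adjusted p = 0.00972). In complex IV, 4 of 11 fell (36.4%), COX5B among them at -0.73 ± 0.12 (adjusted p = 0.0144), and in complex V, 6 of 18 fell (33.3%), with ATP5IF1, an inhibitor of the ATP synthase, at -0.89 ± 0.12 (adjusted p = 0.0107). None of the genes for complexes II to V rose. The list medians ran from -0.09 for complex I to -0.45 for complex V on the log2 scale, beside 0.02 over all genes.

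The mitochondrial ribosome, which joins both rRNAs to nuclear-encoded proteins, also held genes that fell, again beside 13.5% of all genes that fell and 12.6% that rose. Of the large-subunit proteins, 19 of 49 fell (38.8%) and 1 rose, with a median log2 difference of -0.43 and MRPL36 at -1.36 ± 0.17 (SE, edgeR, adjusted p = 0.0098). Of the small-subunit proteins, 13 of 29 fell (44.8%) and none rose, with a median of -0.47 and MRPS34 at -1.08 ± 0.13 (adjusted p = 0.0098). Of the genes for RNA processing and stability, 5 of 17 fell (29.4%) and none rose, among them SLIRP at -0.77 ± 0.19 (adjusted p = 0.0358) and FASTKD5, a processing factor, at -0.79 ± 0.17 (adjusted p = 0.0265).

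The transcription machinery gave no calls. Of its 9 genes none passed in either direction, and TFAM stood at 0.36 ± 0.13 (SE, edgeR, adjusted p = 0.0803) and POLRMT at -0.36 ± 0.13 (adjusted p = 0.0861). LRPPRC stood at 0.02 ± 0.13 (adjusted p = 0.925). Among replication genes TWNK, the mitochondrial helicase, fell by 1.07 ± 0.19 (adjusted p = 0.0166) and PRIMPOL, a primase, rose by 0.87 ± 0.21 (adjusted p = 0.0333), of 10 tested. Of 9 regulators of mitochondrial biogenesis 3 fell, PPARGC1B, PPRC1 and MYC, at -1.07 ± 0.13, -1.06 ± 0.14 and -1.43 ± 0.35 (adjusted p = 0.0102, 0.0117 and 0.0354).

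The lines were compared in 4 pairs matched on environment and on the assumed GNAS state, KM12 over LS174T. The mRNAs took a larger share in KM12 in every pair, by 1.49-fold to 1.62-fold (mean log2 ratio 0.65 ± 0.05, SD). In each environment both KM12 shares lay above both LS174T shares, so this order holds for either match of the states. In edgeR's test 4 of the 13 mRNAs were higher in KM12, where 14.8% of all genes were higher, and none was lower, where 16.7% were lower. Those were MT-CO3 at 0.95 ± 0.17, MT-ND4 at 0.73 ± 0.19, MT-CYB at 0.71 ± 0.19 and MT-ND5 at 0.68 ± 0.18 (log2, SE, edgeR, adjusted p = 0.0125, 0.0364, 0.0351 and 0.035). The count was 0 to 2 when a pair was left out: 2 without the parental and Dox (+) xenografts, 1 without the knockout and Dox (-) xenografts, and 0 without either culture pair. DESeq2 called 11 higher in KM12 and limma-voom 4. MT-ATP8, at -0.02 ± 0.23 (adjusted p = 0.954), was the 1 mRNA with an estimate below 0. POLRMT was lower in KM12 at -0.73 ± 0.13 (adjusted p = 0.0105), and LRPPRC was higher at 0.65 ± 0.12 (adjusted p = 0.0117).

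GNAS state was the question of the series, and no member passed in any of the 3 GNAS fits. For KM12 knockout over parental, 0 of the 13 mRNAs, 2 rRNAs and 2 tested tRNAs passed, where 0.0124% of all genes did. The median log2 difference of the mRNAs was 0.01, beside -0.01 for all genes. None of the mRNAs had an unadjusted p under 0.05 with edgeR, and neither DESeq2 nor limma-voom called any. For LS174T Dox (+) over Dox (-), 0 members passed, where 0% of all genes did. The mRNA median was -0.02, beside 0.01 for all genes. Of the mRNAs 1, MT-ND4L at -0.39 ± 0.16, had an unadjusted p under 0.05 (edgeR, adjusted p = 0.936), and DESeq2 and limma-voom called 0.

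With both lines joined, KM12 parental and LS174T Dox (+) over KM12 knockout and LS174T Dox (-), 0 members passed and 0% of all genes did. This fit uses the same libraries as the fits for each line, and its direction in LS174T rests on the assumption about Dox (+). The mRNA median was -0.04. MT-ND4L at -0.37 ± 0.10 and MT-ND5 at -0.21 ± 0.08 had an unadjusted p under 0.05 (log2, SE, edgeR, adjusted p = 0.776 for both), and DESeq2 and limma-voom called 0. Without the filter on low counts edgeR called 1, MT-ND4L, at an adjusted p of 0.0414. A p that misses the threshold does not show equal levels, and with 2 pairs per line the SE of a member's difference was 0.14 to 0.26 on the log2 scale for the mRNAs.

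The single GNAS pairs differed in either direction. In LS174T cultures the mRNA share was 0.869 of its Dox (-) value in Dox (+) cells, and 12 of the 13 mRNAs had a log2 difference below 0. In LS174T xenografts 9 of the 13 were above 0, at a share ratio of 1.05. The KM12 knockout over parental share ratio was 0.933 in xenografts and 1.06 in cultures. The rRNA share ratio was 0.714 in KM12 xenografts and 1.14 in KM12 cultures, knockout over parental, and 1.10 in LS174T xenografts and 0.728 in LS174T cultures, Dox (+) over Dox (-). The widest differences of an mRNA were in the KM12 xenografts, where MT-ATP8 stood at 0.80 and MT-ND1 at 0.74 on the log2 scale, knockout over parental. In the KM12 cultures the same genes stood at -0.01 and 0.10. The KM12 parental xenograft is also the library with the high COL3A1 value.

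**Figure D5:**
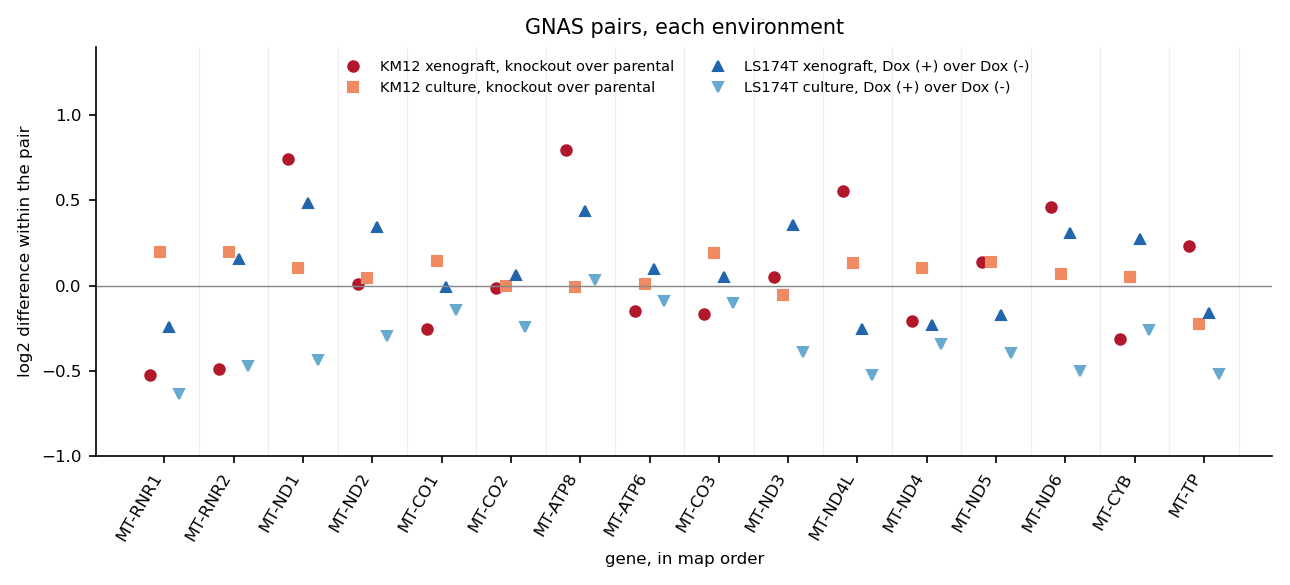
Log2 difference within each GNAS pair for the 13 mRNAs, both rRNAs and MT-TP in map order, knockout over parental in KM12 and Dox (+) over Dox (-) in LS174T, for xenograft and culture apart. Points scatter on both sides of 0, with LS174T cultures below 0 for 12 of the 13 mRNAs and KM12 xenografts highest at MT-ATP8 (0.80) and MT-ND1 (0.74).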

How the data were processed

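Per the labels' protocols, RNA came from an RNAqueous kit, mRNA was enriched on oligo(dT), cDNA was primed with random hexamers and no step marks strand. The deposited table holds raw counts per human gene, made by the authors with STAR 2.7.2b and HTSeq 0.11.0 and the builds hg38 and GRCm39, per the submitters' processing notes. Annotation release and read assignment are not given in the sources used here.

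Symbols were matched for 56753 of 60483 identifiers (93.8%), and sequences came from GENCODE 29. The 16070 genes that reached 1 CPM in 2 or more libraries were tested. R 4.3.3 with edgeR 4.0.16 fitted quasi-likelihood models with TMM factors (1.066 to 1.107 in xenografts, 0.904 to 0.933 in cultures) and Benjamini-Hochberg adjustment over all genes, threshold 0.05. Environment, line and joint GNAS fits blocked on 4 matched pairs, with 3 residual degrees of freedom. The fits for each line's GNAS effect and for the difference of the environment effect between lines had 2. Each SE is the size of the log2 difference over the root of the F statistic. All 37 members could be named. Of the other lists, at most 4 genes that passed, or 2 where none did, were named, plus GNAS, TFAM, POLRMT and LRPPRC. The members and lists were chosen with earlier results of these data known. DESeq2 1.42.0, limma 3.58.1 (voom), other scalings, no filter and omission of pairs were alternatives. The models were tested on simulated data. Pair ratios in the plots use a prior count of 2. Markers of other cell types and the near-copy search are descriptive.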

Additional observations from a re-analysis of the deposited data

Results flagged for a closer look

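These 3 results differed between the lines by a direct test of the difference of the environment effect, KM12 minus LS174T. MT-ND1 differed by 1.895, MT-ND2 by 1.726 and MT-RNR1 by 1.615 on the log2 scale (edgeR, adjusted p = 0.0252, 0.00458 and 0.0111). With DESeq2 the MT-ND1 difference did not pass. Exact 50-base copies in nuclear transcripts cover 22.1% of the windows of MT-ND1, 43.6% of MT-ND2 and 0% of MT-RNR1. For MT-RNR1 both KM12 xenografts were above their cultures and both LS174T xenografts below theirs. For MT-ND1 and MT-ND2 every xenograft was below its culture, by 1.14-fold to 1.99-fold in KM12 and by 3.86-fold to 8.12-fold in LS174T.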

How the results depend on the processing

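Scaling by total counts alone put the median log2 difference of the 13 mRNAs, xenograft over culture, at -0.58 (-0.84 with TMM), called 5 mRNAs lower instead of 8, and turned MT-RNR1 to 0.0117. Without the filter on low counts the KM12 knockout median was 0.0628, the joint GNAS fit called 1 mRNA, and the difference between lines called 4 instead of 2. DESeq2 called 1 for that difference and 11 instead of 4 between the lines. With TMM library sizes as the denominator the mean log2 ratio of the class sums was -0.77 for mRNA, -0.44 for rRNA (-0.18 with total counts) and -1.51 for tRNA. Omitting 1 pair at a time leaves fewer samples. The environment calls then ran from 1 to 5, the calls of the difference between lines from 0 to 2, the line calls from 0 to 2, the KM12 knockout median from 0.0153 to 0.0693 and the MT-RNR1 environment difference from -0.63 to 0.11. Of the single members' alternatives, 196 kept direction and side of the threshold, 46 no longer passed, 11 newly passed and 2 reversed, both of them MT-RNR1. The cause of these shifts was not tested.

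Each group has 1 library, so differences within a single pair have no replicate check, and nothing measures the spread between animals or cultures. For the 14 tRNA genes without counts no difference was detectable at this depth, and why they lack counts was not tested.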
